A study of Mus musculus with 37 samples.

Results

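The ureteric tip is the growing end of the branching ureteric tree in the fetal kidney. Its transcripts were set against those of 5 other kidney components collected at embryonic day E15.5. All groups came from wild-type CD-1 mice, of unrecorded sex, and the arrays of the contrast were all at E15.5. The ureteric tip had 3 arrays, whose titles call the tissue outer ureteric bud. The other components were the medullary collecting duct (3 arrays), the S-shaped body (4), the renal corpuscle (4, at capillary loop and maturing stages), the early proximal tubule (2) and the medullary interstitium (4). The contrast was the mean of the 3 tip arrays minus the unweighted mean of the 5 other component means, so it used 20 of the 37 arrays of the series, and 15709 genes were measured. Of the remaining arrays, the 8 of metanephric mesenchyme and the 4 of ureteric bud, both from E11.5, also served to sort the genes found. Together with the 5 renal vesicle arrays, from E12.5, they entered the processing of the signal and the shared estimate of the spread. Each array held RNA of tissue cut by laser capture from about 50 sections of 5 kidneys, pooled and amplified in 2 rounds. The labels give no method of dissection for 1 interstitium array. At E11.5 the protocol gives laser capture, but titles of all 4 bud arrays and part of the 8 mesenchyme arrays name dissection or collagenase. An array is therefore a pool of animals, and the labels do not say whether the pools of a component came from separate litters, so the p-values measure the spread between pools.

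Tip cells carry the receptor tyrosine kinase Ret, which with its coreceptor Gfra1 receives the ligand Gdnf from the surrounding cap of nephron progenitors, and this signal drives branching. The tip secretes Wnt11 and the whole ureteric epithelium secretes Wnt9b, which acts on the cap. Behind the tips the tree matures into collecting ducts, which take up sodium and water. The cap is marked by Six2, Cited1 and Eya1 and is wrapped by stroma marked by Foxd1, so both tissues lie against the tip.

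Levels are given as log2 of the deposited signal plus an offset of 34.62 after quantile normalization, and the offset makes differences of dim genes smaller than they were. A gene was said to have risen or fallen when limma gave a Benjamini-Hochberg adjusted p under 0.05, over all genes, and a difference of at least 1 in size. On every array the 2% trimmed mean of the signal was 1500. Each tip array correlated most closely with another tip array over all genes (r of 0.95 or more, across genes, which are not independent). Replicates 1 and 3 of the tip were less alike (r of 0.923) than each was to its closest collecting duct array (0.927 and 0.928).

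The markers went with the label. The mean level of 17 measured ureteric tip genes was 10.78, 11.14 and 10.82 in the tip arrays. The 17 other arrays of E15.5 were at 7.48 to 9.85, so none of them reached the tip. The 4 ureteric bud arrays of E11.5 were at 11.10 to 11.33, so this level was not particular to the tip of E15.5. The list was chosen with earlier results of these data known. Among the other components, 2 libraries stood apart from their labels. The library labelled S-shaped body replicate 3 had a podocyte list level of 13.72, against 10.28 to 10.46 in the other S-shaped body arrays, and the library labelled renal corpuscle replicate 4 had 9.78, against 12.81 to 14.05 in the other corpuscle arrays. Counts without both are given below where they moved by over 1.5 times, and for the main groups of rises.

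In the ureteric tip, 117 genes rose and 135 fell, which is 0.745% and 0.859% of all genes, or 1.6% together. Without the 2 libraries 367 genes were called in place of 252, of which 160 rose (1.02% of all genes) and 207 fell (1.32%). The median difference over all genes was -0.09, and centring arrays on their medians moved it to -0.26, with 87 rises and 273 falls in place of 117 and 135. The number of calls moved widely with the fit: with only the 20 arrays of E15.5 in the fit, 64 genes were called, 62 of them among the 252, and with the date in the titles fitted as a term, which also leaves only 18 arrays in the fit, 2 were called. Leaving out tip replicate 1, 2 or 3 left 61, 35 or 74 calls. At an unadjusted p under 0.05 there were 2342 genes.

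**Figure D1:**
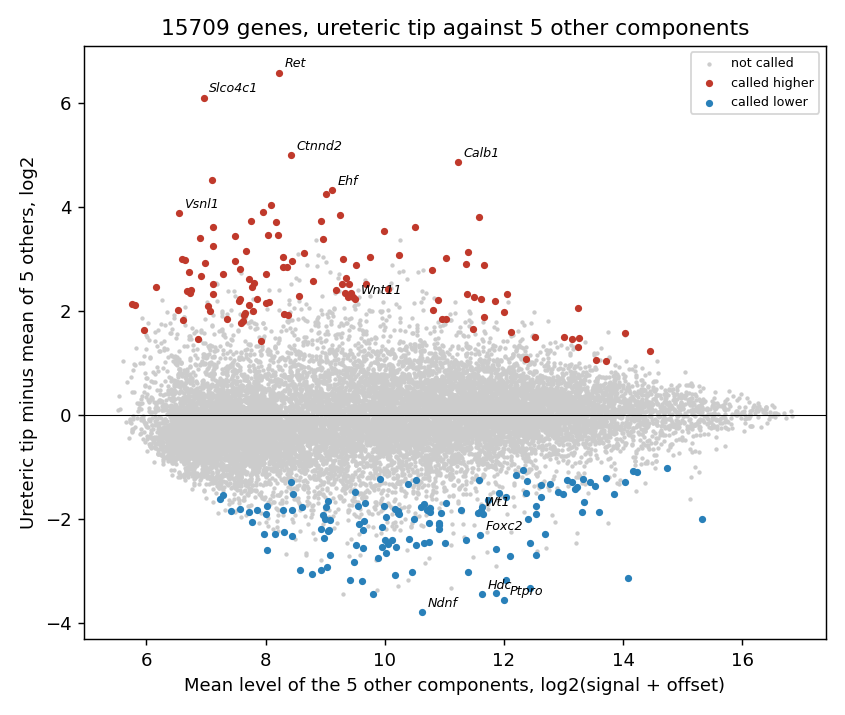
Each point is 1 of 15709 genes, with the mean log2 level of the 5 other components on the x axis and the ureteric tip minus that mean (log2) on the y axis. The 117 genes called higher and the 135 called lower are coloured, and Ret lies highest with a difference of 6.58.

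Ret, the receptor for Gdnf, had the largest rise. Its levels were 15, 14.98 and 14.42 in the tip arrays, against 8.37 to 10.04 in collecting duct, 5.36 to 6.82 in S-shaped body, 5.58 to 10.94 in renal corpuscle, 5.41 and 11.33 in proximal tubule and 5.48 to 12.77 in interstitium. All tip arrays lay above all others, but the others were not uniform: 2 interstitium arrays (12.77 and 12.23), 1 proximal tubule array (11.33) and 1 corpuscle array (10.94) stood above every collecting duct array. The difference was 6.58 (SE 1.24, limma adjusted p = 0.00313). The call was lost in 3 of 36 other settings, among them the fit without tip replicate 2 (limma adjusted p = 0.0539) and the title date fitted as a term (limma adjusted p = 0.191).

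Gfra1, the coreceptor, was at 14.56, 14.91 and 14.18 in the tip arrays, against 7.87 to 13.42 in the others. The tip arrays lay above the others, with a difference of 2.88 (SE 0.77, limma adjusted p = 0.0456), close to the threshold. The call was lost in 15 of 36 other settings, for example with only the E15.5 arrays (adjusted p = 0.234).

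Wnt11, the tip's secreted Wnt, was at 10.80, 12 and 12.39 in the tip arrays, against 7.62 to 11.81 in the others. The lowest tip array lay below 2 interstitium arrays, so the groups overlapped, and the difference was 2.23 (SE 0.49, limma adjusted p = 0.0138). Fitted on E15.5 arrays only, its adjusted p was 0.113.

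Etv5 and Etv4 are transcription factors that act downstream of Ret, and neither passed the test on the probe set used. Etv5 was at 12.83, 13.85 and 13.25 in the tip arrays, against 5.29 to 13.08 in the others, with a difference of 2.75 (SE 1.12, limma adjusted p = 0.227). Its other arrays were widely spread, and 3 S-shaped body arrays reached 12.39 to 13.08. Etv4 was at 10.44, 11.33 and 11.06 in the tip arrays, against 5.58 to 11.13 in the others, with a difference of 2.51 (SE 0.70, limma adjusted p = 0.0538). Etv4 was close to the threshold: it was called higher in 12 of 36 other settings, among them the fit without the 2 libraries that go against their labels (limma adjusted p = 0.0225), and its other probe set was called higher (difference 2.05, SE 0.50). Spry1, a feedback inhibitor of receptor tyrosine kinases, did rise: it was at 12.69, 12.85 and 13.05 in the tip arrays, against 9.70 to 11.80 in the others, with no overlap (difference 1.84, SE 0.34, limma adjusted p = 0.00277).

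**Figure D2:**
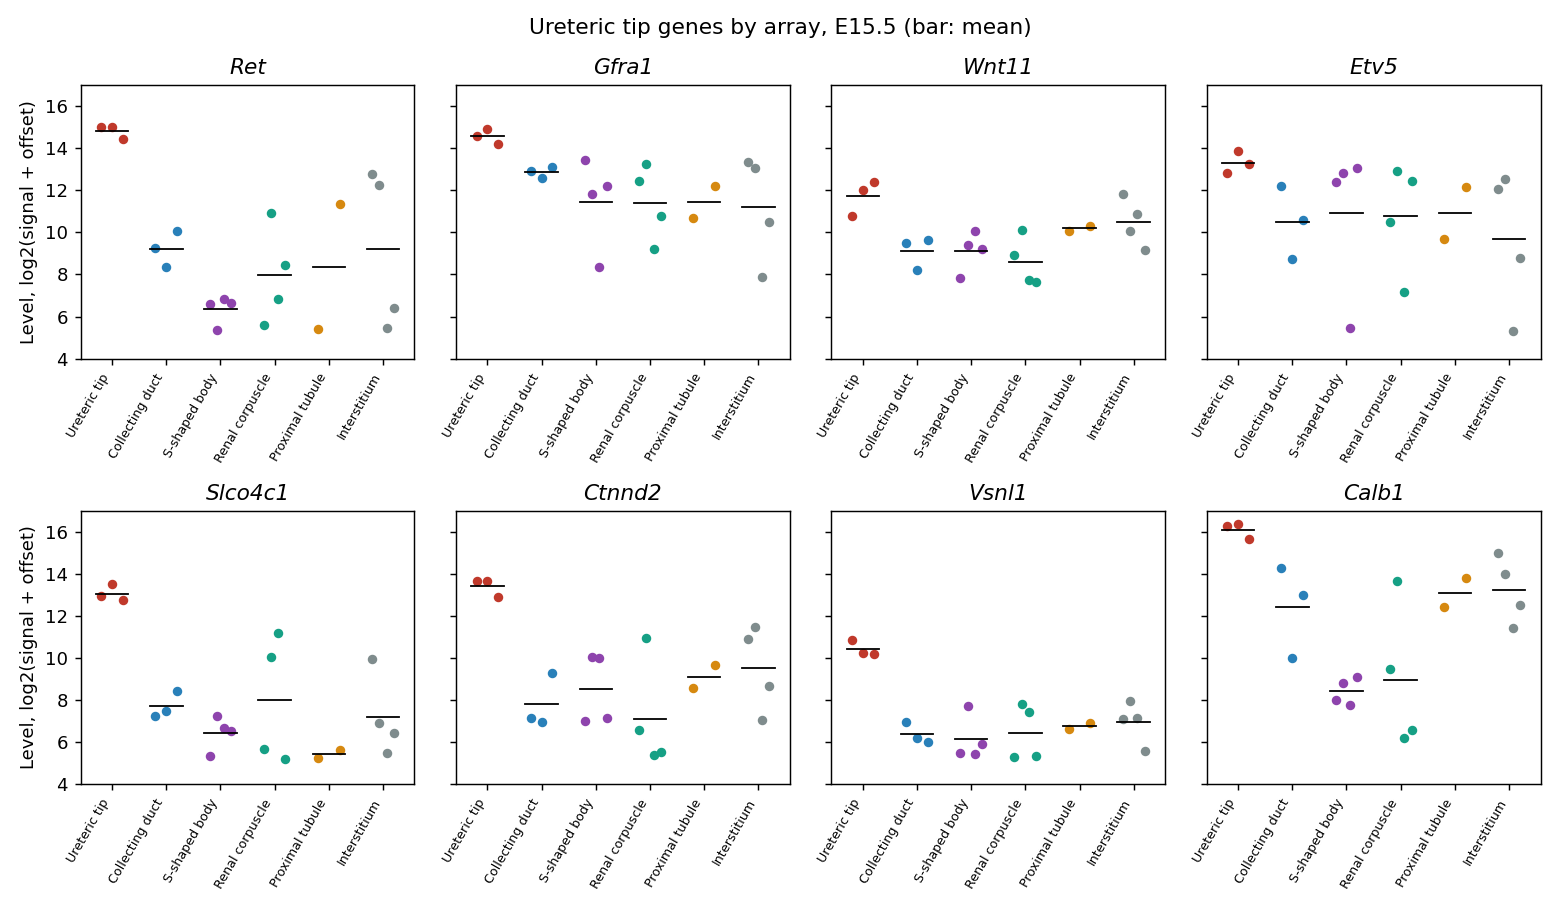
Log2 level of 8 genes in every array of E15.5, by component, with 1 point per array and a bar at the component's mean. The ureteric tip (left, 3 arrays) lies above all other arrays for Ret, Gfra1, Slco4c1, Ctnnd2, Vsnl1 and Calb1, and overlaps them for Wnt11 and Etv5.

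Of the 17 measured genes of the ureteric tip list, 7 rose and 1 fell, with a median difference of 2.23, against -0.09 over all genes. The other rises were Slco4c1, Krt23, Sox9 and Ros1. Sox9, a transcription factor of branching epithelia, was at 9.76, 10.93 and 10.34 in the tip arrays, against 5.43 to 9.50 in the others (difference 2.53, limma adjusted p = 0.0465), and that call was lost in 18 of 36 other settings. Ros1, a receptor tyrosine kinase, was at 10.07, 9.44 and 9.88 in the tip arrays, against 5.44 to 9.06 in the others (difference 2.23, limma adjusted p = 0.0225). Ntn4, a secreted netrin, went the other way: it was at 7.12, 6.39 and 5.79 in the tip arrays, against 7.24 to 12.98 in the others, and every tip array lay below every other (difference -3.19, limma adjusted p = 0.00857). The 9 members that did not pass on the probe set used, Etv5, Etv4, Myb, Adamts18, Moxd1, Sox8, Cxcr4, Tmem59l and Cd44, had differences of 0.23 to 2.75. Of 2 other Myb probe sets 1 was called higher (difference 2.32, SE 0.59), as was the other Etv4 probe set.

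Of the 15 measured genes of the receptor tyrosine kinase response list, only Spry1 rose and none fell, with a median difference of 0.95, and without the 2 libraries that go against their labels Etv4 rose as well. Of 16 Wnt ligands and targets, Wnt9b and Wnt11 rose and none fell (median 0.84). The 23 cell cycle genes were all positive with a median of 0.57, but none passed the test in either direction. Their mean level was 13.25 to 13.56 in the tip arrays, 12.21 to 13.85 in S-shaped body and 12.01 to 13.60 in renal corpuscle. It was 12.79 to 13.40 in interstitium, 11.79 to 13.29 in collecting duct and 11.02 and 12.83 in proximal tubule. Only the proximal tubule lay below every tip array. Over all genes 0.745% rose, 0.859% fell and the median difference was -0.09.

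Setting the tip against each of the 5 components in turn left 7 genes higher than in every one, 0.0446% of all genes. They were Slco4c1, Ctnnd2, Vsnl1, Marchf11, Tm4sf20, Lcn2 and the unnamed transcript C130071C03Rik, of which Lcn2 and the transcript are named because the count is small. No gene met this in the fit without tip replicate 2, 2 did with only the E15.5 arrays and 6 did without the 2 libraries that go against their labels.

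Slco4c1, an organic anion transporter, was at 12.93, 13.53 and 12.74 in the tip arrays, against 5.20 to 11.18 in the others. The highest others were 2 corpuscle arrays (10.03 and 11.18) and 1 interstitium array (9.95), and the difference was 6.10 (SE 0.94, limma adjusted p = 0.000453). Ctnnd2, delta-catenin, which binds cadherins at cell junctions, was at 13.68, 13.67 and 12.89 in the tip arrays, against 5.37 to 11.46 in the others (difference 4.99, SE 0.84, limma adjusted p = 0.000961). Vsnl1, a neuronal calcium sensor, was at 10.84, 10.24 and 10.18 in the tip arrays, against 5.29 to 7.97 in the others. Its difference was 3.87 (SE 0.73, limma adjusted p = 0.00313), although the other Vsnl1 probe set was not called.

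Marchf11, a membrane ubiquitin ligase, was at 10.34, 11.18 and 10.68 in the tip arrays, against 5.67 to 8.89 in the others (difference 3.62, SE 0.51, limma adjusted p = 0.00016). Tm4sf20, a transmembrane protein, was at 10.20, 9.67 and 9.03 in the tip arrays, against 5.27 to 8.11 in the others (difference 2.98, SE 0.45, limma adjusted p = 0.000376). Lcn2, which codes for a secreted lipocalin, was at 6.97, 8.40 and 8.40 in the tip arrays, against 5.19 to 7.15 in the others, where the lowest tip array fell below 1 corpuscle array. Only tip replicates 2 and 3 were above the filter threshold of 7.89. Lcn2 was therefore measured only because it was high in the tip, and its place among these genes is partly set by the filter.

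Promoters are shown for the ureteric Wnt gene and for the 2 largest of these 7 rises, because the mean level of each was higher in the tip than in any of the 5 other components. The windows run from 250 bases before to 50 bases after the start in the RefSeq table (GRCm38.p6), 5′ to 3′ on the gene's strand, with TATAAA on either strand in capitals. Wnt11 lies at chr7:98834862-98835161 on the plus strand (the first of 2 windows), Slco4c1 at chr1:96872122-96872421 on the minus strand and Ctnnd2 at chr15:30172284-30172583 on the plus strand.
Wnt11: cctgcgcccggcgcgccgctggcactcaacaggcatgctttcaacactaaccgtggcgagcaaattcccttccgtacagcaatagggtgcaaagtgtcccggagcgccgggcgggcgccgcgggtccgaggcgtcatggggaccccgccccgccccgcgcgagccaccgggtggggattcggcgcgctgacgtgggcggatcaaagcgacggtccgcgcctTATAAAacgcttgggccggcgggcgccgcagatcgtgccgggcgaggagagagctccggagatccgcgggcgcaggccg
Slco4c1: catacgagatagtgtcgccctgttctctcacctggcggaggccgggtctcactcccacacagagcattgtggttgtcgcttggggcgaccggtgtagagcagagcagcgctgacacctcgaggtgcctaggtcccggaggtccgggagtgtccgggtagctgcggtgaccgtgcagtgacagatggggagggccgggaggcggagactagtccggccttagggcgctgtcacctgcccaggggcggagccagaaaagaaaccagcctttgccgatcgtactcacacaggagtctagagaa
Ctnnd2: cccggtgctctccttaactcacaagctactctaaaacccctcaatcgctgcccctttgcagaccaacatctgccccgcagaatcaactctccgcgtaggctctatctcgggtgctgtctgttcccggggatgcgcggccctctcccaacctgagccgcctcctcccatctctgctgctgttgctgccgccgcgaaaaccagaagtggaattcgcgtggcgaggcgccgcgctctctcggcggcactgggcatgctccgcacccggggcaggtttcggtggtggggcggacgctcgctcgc
The Wnt11 window held 1 match and the other windows none. A window was found for 92 of the 117 rises, 99 of the 135 falls and 12566 of all 15709 genes, with 1 chromosome left out. Among genes with a window, 18.5% of the rises, 10.1% of the falls and 10.2% of all had TATAAA in at least 1 window. The ETS core CCGGAAG was found in this way for 4.35%, 6.06% and 16.7% of the genes in the same order. For AGATAA, which GATA factors bind, the shares were 4.35%, 10.1% and 8.56%. Both strands were searched. These are shares of genes with matching letters and no test was made.

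The collecting duct, the other ureteric component, was the nearest in level for many of the rises. For 55 of the 117 rises (47.0%) it was the highest of the 5 other components, against 14.2% of all genes. Only 15 of the rises were also called higher in the tip than in the collecting duct, where 0.121% of all genes were and 0.356% were called in either direction, 1 was called lower (Sprr2f, named because it is single) and 101 were not called either way. These contrasts share the tip arrays. The count of 15 fell to 5, 2 and 9 without tip replicate 1, 2 and 3, to 4 without collecting duct replicate 2, to 3 with only the E15.5 arrays and to 1 with the title date as a term, and it was 18 without the 2 libraries that go against their labels.

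Of 17 measured ureteric epithelium genes 7 rose in the tip against the 5 components and none fell, with a median of 2.41, while against the collecting duct none was called and the median was 0.02. Gata3, a transcription factor needed for the ureteric duct, was at 13.61, 14.55 and 14.25 in the tip arrays, against 13.27, 15.02 and 14.52 in collecting duct and 5.93 to 12.61 in the other 4 components (difference from the 5 components 3.62, limma adjusted p = 0.035), and its call was lost in 8 of 36 other settings. Wnt9b was at 11.47, 12.91 and 12.65 in the tip arrays, against 12.28, 12.73 and 11.86 in collecting duct and 6.42 to 10.91 elsewhere (difference 3.38, limma adjusted p = 0.000763), and its other probe set had the opposite sign. Ehf, an epithelial ETS factor, was at 13.65, 13.65 and 13.01 in the tip arrays, against 12.43, 13.88 and 13.95 in collecting duct and 5.33 to 11.88 elsewhere (difference 4.32, limma adjusted p = 0.00184). Of 3 other Ehf probe sets 2 were also called and 1 had the opposite sign. Calb1, the calcium-binding protein calbindin, was higher in every tip array (16.26, 16.38 and 15.65) than in any other array (6.19 to 14.98), with a difference of 4.86 (limma adjusted p = 0.0387). That call was also lost in 8 of 36 other settings, and both were lost when any 1 tip array was left out.

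Spry1, Socs2 and Cxcl14 were among the genes called above the collecting duct. Spry1 was 2.31 higher in the tip than in the duct (limma adjusted p = 0.00775). Socs2, an inhibitor of cytokine signalling, was at 11.91, 11.66 and 11.36 in the tip arrays, against 8.21, 7.25 and 8 in collecting duct (difference 3.82, limma adjusted p = 0.00516). Cxcl14, a chemokine, was at 11.34, 11.43 and 11.65 in the tip arrays, against 8.07, 5.99 and 5.40 in collecting duct (difference 4.99, limma adjusted p = 0.0218), and 3 S-shaped body arrays reached 10.31 to 11.47. Against the mean of the 5 components, 1 of 4 other Socs2 probe sets was also called and 1 had the opposite sign. The other Cxcl14 probe set was not called. Ret was 5.58 higher in the tip than in the duct, with no overlap, and did not pass there (limma adjusted p = 0.19).

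Of the 16 collecting duct differentiation genes, 2 rose against the 5 components (Scnn1g, a subunit of the epithelial sodium channel, and Avpr2, the vasopressin receptor) and none fell, with a median of 0.22. Against the duct itself none was higher, 2 were lower and the median was -1.74, against -0.02 over all genes and 0.236% of all genes called lower. Scnn1g was at 12, 11.73 and 11.89 in the tip arrays, against 11.79, 14.10 and 12.98 in collecting duct and 5.38 to 8.47 elsewhere. The 2 lower genes were Upk3a, a uroplakin of the urothelium, at 7.57, 7.47 and 7.22 in the tip arrays, against 12.05, 14.34 and 13.75 in collecting duct (difference -5.96, limma adjusted p = 3.68e-09), and Wnt7b, which the duct secretes to the medulla, at 9.99, 10.02 and 10.34 in the tip arrays, against 10.98, 12.79 and 12.32 in collecting duct (difference -1.91, limma adjusted p = 0.0479). Both are named after their values were seen.

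**Figure D3:**
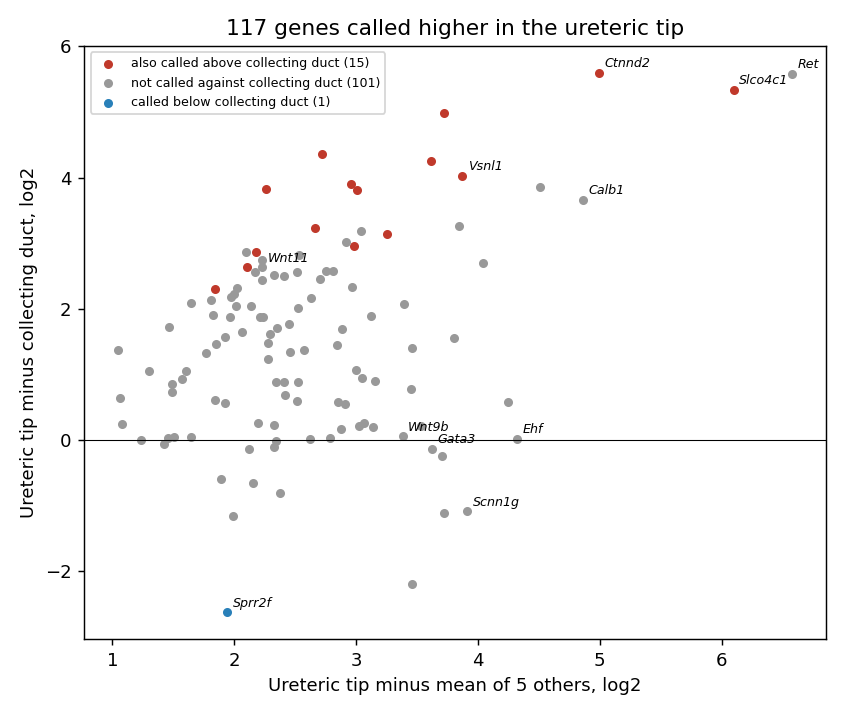
Each point is 1 of the 117 genes called higher in the ureteric tip, with the difference from the mean of the 5 others on the x axis and the difference from the collecting duct on the y axis (both log2; both use the tip arrays). Slco4c1, Ctnnd2 and Vsnl1 are high on both axes, while Gata3, Wnt9b and Ehf lie near 0 against the collecting duct.

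The arrays of E11.5 entered the contrast only through the offset, normalization, filter, choice of probe sets and shared estimate of the spread. Of the 117 rises, 78 (66.7%) were called higher in ureteric bud than in mesenchyme at that stage, 1 (0.855%) was called higher in mesenchyme than in bud and 38 passed neither way. Over all genes 4.07% were higher in mesenchyme and 4.08% in bud. Titles of every bud array but only part of the mesenchyme arrays name dissection or collagenase. Tissue and method of collection are therefore partly confounded in this sort and in the E11.5 list levels given below. The 1 mesenchymal rise was Kcnn4, a calcium-activated potassium channel, at 9.57, 10.22 and 10.90 in the tip arrays, against 5.47 to 10.73 in the others, with both proximal tubule arrays (10.53 and 10.73) above 2 of the tip arrays. Its adjusted p of 0.0466 (limma, difference 2.17) was lost in 18 of 36 other settings. Of the 135 falls, 34 were called higher in mesenchyme, 4 in bud and 97 neither way, and without the 2 libraries that go against their labels 62 of 207 falls were higher in mesenchyme and 5 in bud, and of the 160 rises 1 and 96. Of the 15 rises also above the collecting duct, 10 were higher in bud, none in mesenchyme and 5 neither way.

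**Figure D4:**
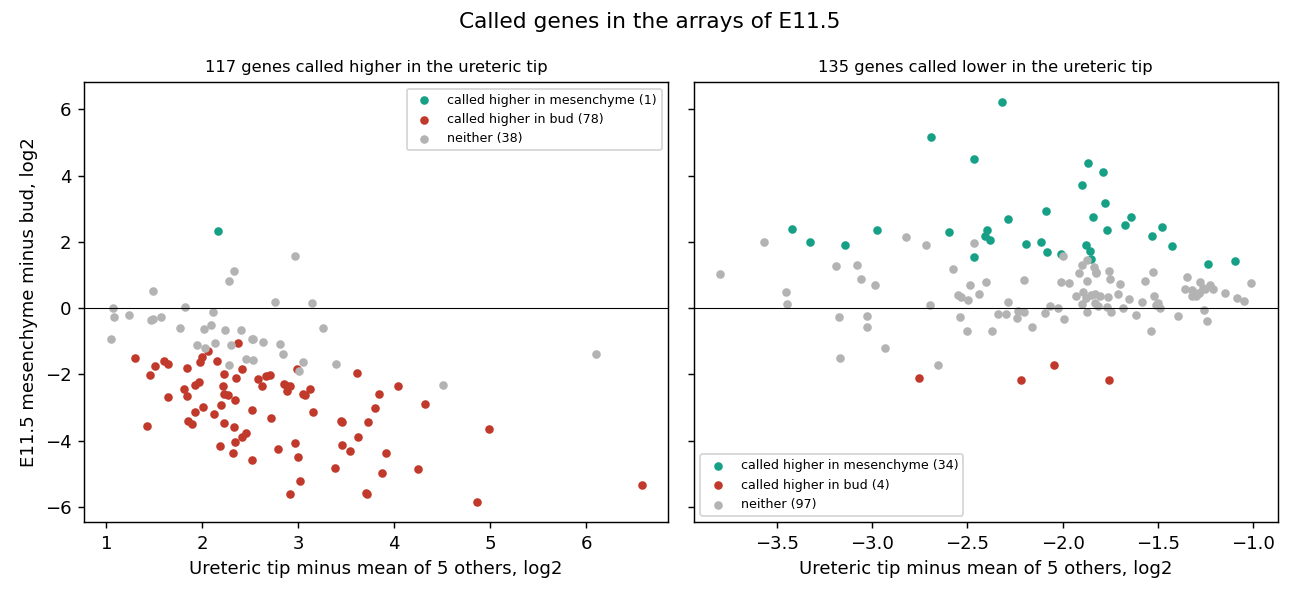
Genes called higher (left, 117) and lower (right, 135) in the ureteric tip, with the tip difference on the x axis and the mesenchyme minus bud difference at E11.5 on the y axis (both log2). Of the genes called higher 78 were called higher in bud and 1 in mesenchyme, and of those called lower 4 and 34.

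Progenitor transcripts of the cap, which lies against the tip, were on the tip arrays, but none of those listed was called higher. Over all genes 0.745% rose, 0.859% fell and 0.356% were called against the collecting duct, so a list of 23 genes need not hold any call. Of 23 measured nephron progenitor genes none rose and 1 (Wt1) fell (without the 2 libraries that go against their labels, also Pla2g7). The median difference was 0.06, against -0.09 over all genes. Against the collecting duct none was called (median 0.16, against -0.02 over all genes). Array weights alone among 36 other settings called any higher, and these were Eya1 (1.80, limma adjusted p = 0.0358) and Capn6 (1.47, limma adjusted p = 0.00647). The mean level of the list was 9.57, 9.64 and 9.81 in the tip arrays, against 8.71 to 10.40 in collecting duct, 8.89 to 9.43 in S-shaped body, 9.09 to 11.09 in renal corpuscle, 9.19 and 10.40 in proximal tubule and 8.42 to 10.80 in interstitium. The tip arrays lay inside the range of every component but the S-shaped body, which was lower. At E11.5 the same list was at 10.42 to 11.35 in mesenchyme and 7.74 to 8.22 in bud, so the tip arrays stood between them, and 17 of the 23 genes were called higher in that mesenchyme and none in that bud. Where these transcripts came from was not tested, and fewer cells of a type cannot be told apart from less RNA per cell.

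Six2, the transcription factor that keeps progenitors undifferentiated, was at 9.59, 9.78 and 9.91 in the tip arrays, against 7.93 to 13.09 in the others, where 1 proximal tubule array (13.09), 1 corpuscle array (11.81) and 1 interstitium array (11.79) were highest. Its difference was -0.12 (SE 0.67, limma adjusted p = 0.956). Eya1, a phosphatase and transcriptional coactivator, was at 12.30, 12.44 and 12.21 in the tip arrays, against 7.02 to 13.90 in the others, with a difference of 1.86 (SE 0.88, limma adjusted p = 0.311). The tip arrays were above all 4 S-shaped body arrays (7.73 to 9.53) and among the collecting duct arrays (10.26 to 13.15).

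Gdnf, the ligand of Ret, was at 9.02, 11.26 and 11.49 in the tip arrays, against 5.41 to 13.57 in the others (difference 0.63, SE 1.10, limma adjusted p = 0.835). Corpuscle replicate 2, proximal tubule replicate 2 and interstitium replicates 1 and 2 held both Gdnf (12.11 to 13.57) and Ret (10.94 to 12.77), and these 4 arrays are part of the mean that the tip was set against. Wt1, high in podocytes and present in the cap, was at 10.22, 9.41 and 9.55 in the tip arrays, against 8.12 to 13.97 in the others, and fell by 1.86 (SE 0.46, limma adjusted p = 0.0269).

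Stromal transcripts of the nephrogenic zone gave no rise either. Over all genes 0.745% rose and 0.859% fell, so a list of 17 genes need not hold any rise. Of 17 measured genes none rose and 2 fell, with a median of -0.36, against -0.09 over all genes. Under all 36 other settings none rose, and 0 to 5 fell, with 5 under array weights. The mean level was 10.56, 9.85 and 10.35 in the tip arrays, against 11.33 to 12.31 in interstitium and 9.58 to 12.13 in the other 4 components, and at E11.5 it was 11.66 to 12.37 in mesenchyme and 7.96 to 8.62 in bud. Foxd1, the stromal progenitor factor, was at 12.27, 10.89 and 12 in the tip arrays, against 7.37 to 14.17 in the others (difference -0.22, SE 0.80, limma adjusted p = 0.93). Tcf21, a factor of stroma and podocytes, was at 10.22, 9.92 and 11.80 in the tip arrays, against 10.23 to 14.67 in the others (difference -1.90, SE 0.48, limma adjusted p = 0.0334). Foxc2, a mesenchymal forkhead factor, was at 8.48, 9.70 and 9.66 in the tip arrays, against 9.43 to 12.46 in the others (difference -2.32, SE 0.47, limma adjusted p = 0.00661).

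Fibrillar matrix genes varied among the tip arrays themselves. Of 17 measured members none was called in either direction, and 1.6% of all genes were. Against single components, 6 were lower than in interstitium, where 2.05% of all genes were, and 1 than in proximal tubule, where 7.65% were. The median against the 5 components was -0.75, and it turned to 0.10 without tip replicate 2. Array weights alone among 36 other settings called any member against the 5 components, 11 of them lower (median -1.41). The list level was 12.43, 9.77 and 11.17 in tip replicates 1, 2 and 3, against 12.93 to 13.57 in interstitium. For 15 of the 17 members replicate 1 was the highest tip array and for 16 replicate 2 was the lowest, and the median range across the 3 tip arrays was 2.68, against 0.84 over all genes. Postn, a matrix protein of mesenchyme, was at 14.17, 9.45 and 10.50 in the tip arrays, against 13.70 to 15.13 in interstitium. Dcn, the proteoglycan decorin, was at 12.98, 8.51 and 11.12 in the tip arrays, against 12.60 to 14.55 in interstitium (named after its values were seen). Over the same 3 arrays the ureteric tip list was at 10.78 to 11.14.

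**Figure D5:**
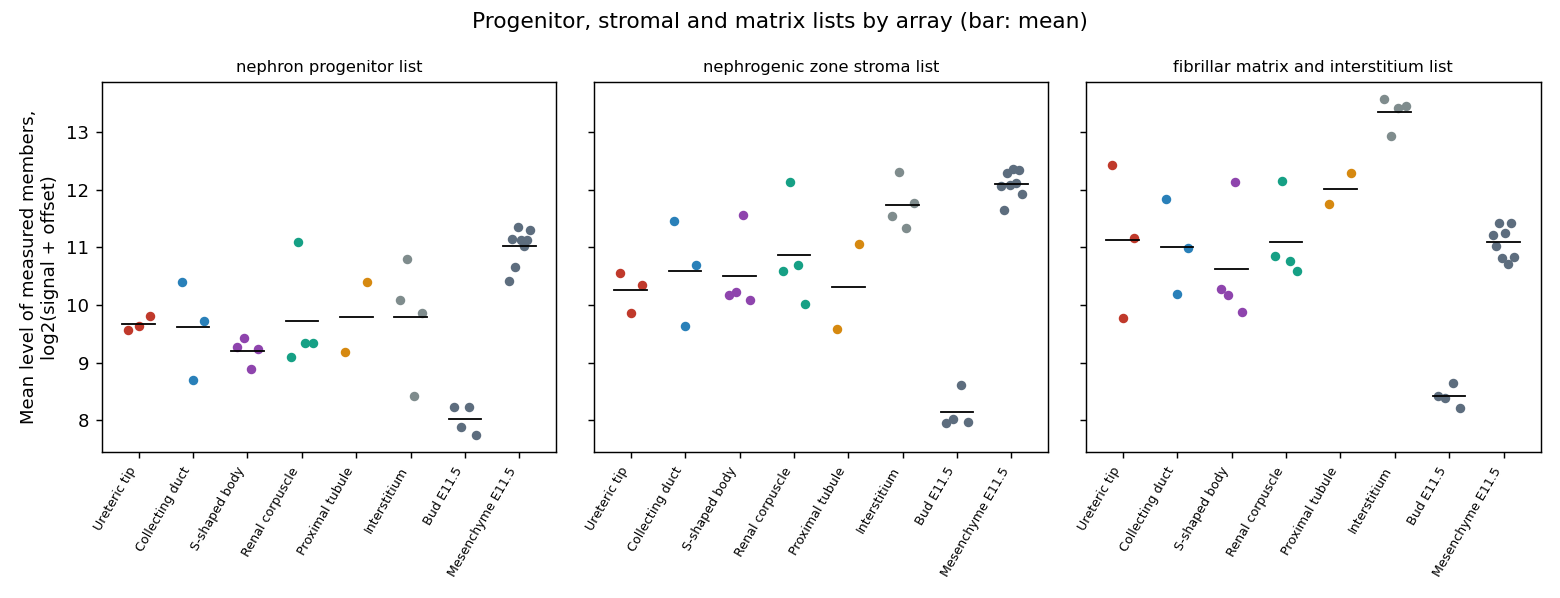
Mean log2 level of the measured members of 3 lists (23 progenitor, 17 stromal and 17 fibrillar matrix genes), with 1 point per array and a bar at the component's mean, for E15.5 and, at right, E11.5. The tip arrays (left) lie between E11.5 bud and mesenchyme for the first 2 lists and spread from 9.77 to 12.43 for the third.

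For 64 of the 135 falls (47.4%) the proximal tubule was the highest other component, as it was for 34.5% of all genes. The corpuscle was highest for 33 of the falls (24.4%, against 16.2% of all genes), the interstitium for 28 (20.7% against 19.7%), the S-shaped body for 7 (5.19% against 15.3%) and the collecting duct for 3 (2.22% against 14.2%). A gene that fell has to be high in some other component, so these shares describe the falls and test nothing. Of 20 proximal tubule genes 5 fell and none rose (median -1.82), of 15 endothelial genes 3 fell and none rose (median -1.45), and of 14 podocyte genes 1 fell and none rose (median -1.07). Over all genes 0.859% fell, 0.745% rose and the median was -0.09, so a short list with 1 fall or none says little. Without the 2 libraries that go against their labels, 6 podocyte, 5 proximal tubule and 4 endothelial genes fell, and 1.32% of all genes did. The corpuscle was then highest for 76 of 207 falls (36.7%, against 17.6% of all genes). Macrophage (11 genes) and erythroid genes (9) gave no call, with medians of -0.94 and -0.75, although 1 macrophage gene (Csf1r) fell without those libraries.

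Ndnf, a secreted neurotrophic factor, was at 6.84, 7.38 and 6.27 in the tip arrays, against 12.64 to 14.63 in S-shaped body and corpuscle, and fell by 3.79 (SE 0.62, limma adjusted p = 0.000656). Proximal tubule was as low as the tip (5.89 and 7.24). Ptpro, a podocyte phosphatase, was at 9.01, 7.05 and 9.25 in the tip arrays, against 12.66 to 16.47 in corpuscle, and fell by 3.56 (limma adjusted p = 0.00781). Cldn5, a claudin of endothelium and podocytes, was at 7.89, 8.85 and 10.61 in the tip arrays, against 9.14 to 15.32 in the others, and fell by 3.33 (limma adjusted p = 0.000163).

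Slc22a6, the organic anion uptake transporter of the proximal tubule, was at 5.87, 5.81 and 7.06 in the tip arrays, against 14.28 and 14.10 in proximal tubule and 6.58 to 10.92 elsewhere, and fell by 3.17 (limma adjusted p = 0.00313). Tie1, an endothelial receptor, was at 5.54, 5.44 and 5.32 in the tip arrays, against 6.57 to 10.35 in the others, below all of them (difference -2.60, limma adjusted p = 0.015). Of all genes 0.28% had every tip array below every other and 0.274% had every tip array above, and 20 of the falls and 36 of the rises did.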

How the data were processed

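RNA of 37 pools of fetal mouse kidney was hybridized to 1 Affymetrix array each. The authors deposited signal intensity from the GCOS software, per the submitters' processing notes, version not given, scaled to one 2% trimmed mean. Values plus the offset of 34.62 (percentile 20 of all values) were taken to log2 and quantile normalized. Probe sets above the pooled median (7.89) on 2 or more arrays passed, 29066 of them with 1 gene, and the brightest stood for its gene, giving 15709 genes. limma 3.58.1 in R 4.3.3 fitted 1 mean per component to all 37 arrays (lmFit, eBayes with trend, 28 residual degrees of freedom), with Benjamini-Hochberg adjustment over all genes, and the code was tested on simulated data. For Ndnf, Ptpro, Tcf21, Slc22a6 and Kcnn4 the other probe set had the same sign but was not called. Detection calls were not used here.

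Arrays were grouped by tissue label and numbered in accession order. The members and the 24 gene lists (344 of 371 symbols measured) were chosen with earlier results of these data known. Named genes came from a set of 123: the 20 largest rises without overlap, the 10 largest falls, the 10 largest rises over the collecting duct, rises higher in mesenchyme, all tip, progenitor and stroma list members, and up to 4 members of each other list, skipping symbols of clones or models. Genes outside it are C130071C03Rik, Lcn2, Sprr2f, Upk3a, Wnt7b and Dcn, picked once their values were known. Other settings tried were other offsets, scaling, filters, probe sets, array weights, arrays in the fit, other references, title date and number, and leaving out each array.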

Additional observations from a re-analysis of the deposited data

Results flagged for a closer look

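Of 144 sets of values (a gene or a list in a component of 4 arrays), 19 had 1 array farther from the rest than Dixon's 95% critical value allows, where chance gives about 1 in 20; the sets share arrays, so the marks are not independent. All values are log2 levels and lie in the components the ureteric tip was set against.

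The library labelled S-shaped body replicate 3 was the outlying array for Foxd1 (14.17, others 10.52 to 11.09) and for 7 lists. Its levels were 7.72 for the ureteric tip list (others 8.85 to 9.04), 11.56 for nephrogenic zone stroma (others 10.08 to 10.22), 9.26 for renal vesicle and nascent nephron (others 11.78 to 12.11) and 13.72 for podocyte (others 10.28 to 10.46). They were 11.29 for proximal tubule (others 8.17 to 8.47), 11.90 for loop and distal tubule (others 10.20 to 10.46) and 10.68 for receptor tyrosine kinase response (others 11.67 to 11.86).

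Renal corpuscle replicate 2 was the outlying array for Eya1 (13.90, others 7.31 to 8.28) and for the lists of nephron progenitors (11.09, others 9.09 to 9.34), fibrillar matrix (12.15, others 10.59 to 10.85) and retinoic acid signalling (10.19, others 8.85 to 8.93). Its Ret level was 10.94, the highest of the 4 corpuscle arrays. The library labelled renal corpuscle replicate 4 was the outlying array for Ptpro (12.66, others 15.93 to 16.47), Apom (11.13, others 7.16 to 7.69) and hypoxia and glycolysis (11.10, others 12.15 to 12.26), and replicate 1 for oxidative metabolism (11.76, others 11.08 to 11.18).

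The other outlying values were Ret in S-shaped body replicate 2 (5.36, others 6.60 to 6.82), Marchf11 in interstitium replicate 3 (5.67, others 7.78 to 8.01) and Krt23 in interstitium replicate 1 (10.59, others 8.86 to 9.02). Components of 3 arrays or fewer, the tip among them, were not examined.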

How the results depend on the processing

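The direction of none of the 63 genes followed turned round under 36 other settings, but the counts moved widely. Most of these genes were followed because they were called in these same arrays, so their steady direction is no check of them. The medians of the progenitor and fibrillar matrix lists did change sign in at least 1 setting. Calls against the mean of 5 components (252), rises (117), falls (135), genes above every component (7), calls against collecting duct (56), rises also above the duct (15) and rises higher in E11.5 bud (78) or mesenchyme (1) are given in that order where they moved by over 1.5 times. The offset at percentile 5 gave 165 calls, 67 rises, 1 above every component, 19 against the duct, 6 also above it, 44 in bud and 0 in mesenchyme. The offset at percentile 40 gave 12 above every component, 87 against the duct, 26 also above it and 2 in mesenchyme. Array medians gave 273 falls, 3 above every component, 36 against the duct, 9 also above it and 0 in mesenchyme, no filter gave 0 in mesenchyme, a filter at percentile 70 gave 4 above every component, and the most variable probe set gave 191 rises. Array weights (0.254 to 5.94) gave 2088 calls, 755 rises, 1333 falls, 1014 against the duct, 229 also above it, 362 in bud and 17 in mesenchyme. Only the E15.5 arrays gave 64 calls, 38 rises, 26 falls, 2 above every component, 14 against the duct and 3 also above it, and without the doubted S-shaped body and corpuscle libraries as well (chosen after seeing the data) 155 calls, 77 falls, 2, 19 and 5. Leaving out those libraries alone gave 207 falls. Leaving the duct out of the reference gave 629 calls, 266 rises, 363 falls and 136 in bud. The title date as a fixed term gave 2 calls, 2 rises, 0 falls, 0 above every component, 7 against the duct and 1 also above it. Within the dates shared with tip replicates 1, 2 and 3, the sign was that of the whole contrast for 230, 250 and 251 of the 252 calls and for 69.1%, 74.0% and 74.5% of all genes, but the same arrays chose the calls, so this is no check of them.

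Between tip arrays and other arrays of the same title number, 1 of 12 correlations of deviations was over 0.1 (from -0.22 to 0.22). Both extremes came from the 2 proximal tubule arrays, which share a title number. Their deviations from their mean are exact opposites, so pairing could not be seen there. The replicate block gave 16 calls, 12 rises, 4 falls, 0 above every component, 8 against the duct and 2 also above it. Leaving out 1 array at a time gave 35 to 366 calls, 26 to 174 rises, 9 to 196 falls, 0 to 8 above every component, 13 to 76 against the duct, 2 to 19 also above it, 19 to 94 in bud and 0 to 2 in mesenchyme. Each tip array left out moved the calls by over 1.5 times (61, 35 and 74 without replicates 1, 2 and 3). The tip rests on 3 pools and the proximal tubule on 2; the number of arrays limits the precision, and the cause of these shifts was not tested.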
